A study of Bos taurus with 14 samples.

Results

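The genes described here are the mitochondrial carriers and the protein import machinery of bovine skeletal muscle. They were chosen by name: every probe set (the group of short probes that reads a transcript on the array) whose single gene symbol starts with SLC25A, TIMM or TOMM was taken, without *SLC25A20* and *SLC25A34*, and each gene was represented by its probe set with the highest mean over the 14 arrays. This gave 57 probe sets for 43 genes, 25 carriers and 18 import genes, of 9155 genes with a single symbol on the array. The rule itself uses gene names and mean levels, not a difference between the groups. It was, however, set with earlier results of these data known. All 43 genes were matched by gene identifier to the cattle reference annotation.

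The study compared *M. longissimus dorsi* (LD) muscle of Charolais × Limousin crossbred heifers from 2 production systems, with 7 animals each on Affymetrix GeneChip Bovine Genome Arrays and 1 array per animal. The outdoor/pasture-fed heifers grazed a sward of mainly ryegrass, meadow grass and white clover over the year before slaughter, whereas the indoor/concentrate-fed heifers were housed throughout and ate concentrate with barley straw. Housing and diet changed together, so their effects cannot be told apart. Exercise, which the paper holds likely to be greater outdoors but reports no measure of, cannot be separated from them. The animals of each system were kept in several management groups that the sample labels do not give. In whole muscle, fewer cells of a type and less RNA per cell cannot be told apart either. The 14 arrays had medians of 6.77 to 6.84 on the log2 scale and Pearson correlations of 0.985 to 0.997 between arrays across probe sets. Both were largely set by the processing, since the authors' values were quantile normalised and 59.9% of all probe sets hardly varied between arrays. They are therefore no measure of how alike the samples were. The skeletal muscle markers were high in both groups: the mean of the 6 measured ones was 13.61 to 13.67 on the log2 scale in the outdoor/pasture-fed and 13.56 to 13.66 in the indoor/concentrate-fed animals. Of these, 3 (*ACTA1*, *CKM* and *MB*) had almost the same value on every array, so the ranges do not show equal muscle content. The 3 that varied, *MYH1*, *MYH7* and *DES*, differed by 0.14, 0.11 and -0.06 (outdoor/pasture-fed minus indoor/concentrate-fed).

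The inner mitochondrial membrane lets few solutes through by itself. Carriers of the SLC25 family exchange ATP for ADP and move phosphate, organic acids, amino acids and cofactors across it. Nearly all mitochondrial proteins are made in the cytosol and enter through the TOM complex of the outer membrane. From there the TIM23 complex takes proteins with a presequence, while the small TIM chaperones and the TIM22 complex insert the carriers themselves. Skeletal muscle, with its high demand for ATP, is rich in several of these proteins.

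No carrier and no import gene passed the adjusted threshold. Differences are log2 values of the outdoor/pasture-fed animals minus those of the indoor/concentrate-fed animals and were tested with limma, with p-values adjusted over all 24016 probe sets by the Benjamini-Hochberg method. At an adjusted p of 0.05, 0 of 43 genes were called, beside 4 of all 24016 probe sets (0.0167%). At an unadjusted p of 0.05, 3 of 25 carriers (*SLC25A12*, *SLC25A28* and *SLC25A5*) were higher in the outdoor/pasture-fed animals and 0 were lower. Of the 18 import genes, 1 (*TOMM7*) was higher and 2 (*TIMM50* and *TOMM34*) were lower. Of all probe sets, 5.35% were higher and 6.07% lower at that threshold. The 4 higher and 2 lower genes are 9.30% and 4.65% of the 43, so that they differ from the background by a few genes at most.

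Of the 43 genes, 18 had almost the same value on every array, a property of the authors' FARMS summary that holds for 59.9% of all probe sets. These 12 carriers and 6 import genes have a level but no usable difference. The remaining 25 genes, 13 carriers and 12 import genes, varied between the arrays by a standard deviation (SD) of more than 0.01, as did 9623 probe sets in all, and are called varying below. Of the varying carriers 9 were higher and 4 lower in the outdoor/pasture-fed animals, with a median difference of 0.06 that became 0.04 without indoor/concentrate-fed replicate 4. Of the varying import genes 5 were higher and 7 lower, with a median of -0.04. This became 0.0053 without outdoor/pasture-fed replicate 5, -0.02 without outdoor/pasture-fed replicate 2 and -0.01 without either indoor/concentrate-fed replicate 2 or 6. Over all varying probe sets 47.5% were higher, and the median was -0.0077.

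When the fit and the adjustment were restricted to the varying probe sets, again 0 genes of either group were called, against 33 of 9623 (0.343%). At an unadjusted p of 0.05 this fit gave 2 carriers (*SLC25A12* and *SLC25A28*) and 1 import gene (*TOMM7*) as higher and 0 genes as lower. The background was 9.21% higher and 10.4% lower, beside 15.4% of the 13 varying carriers and 8.33% of the 12 varying import genes higher, which are 2 genes and 1 gene. In 0 of the 25 genes did the groups separate completely, compared with 0.811% of the varying probe sets.

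**Figure D1:**
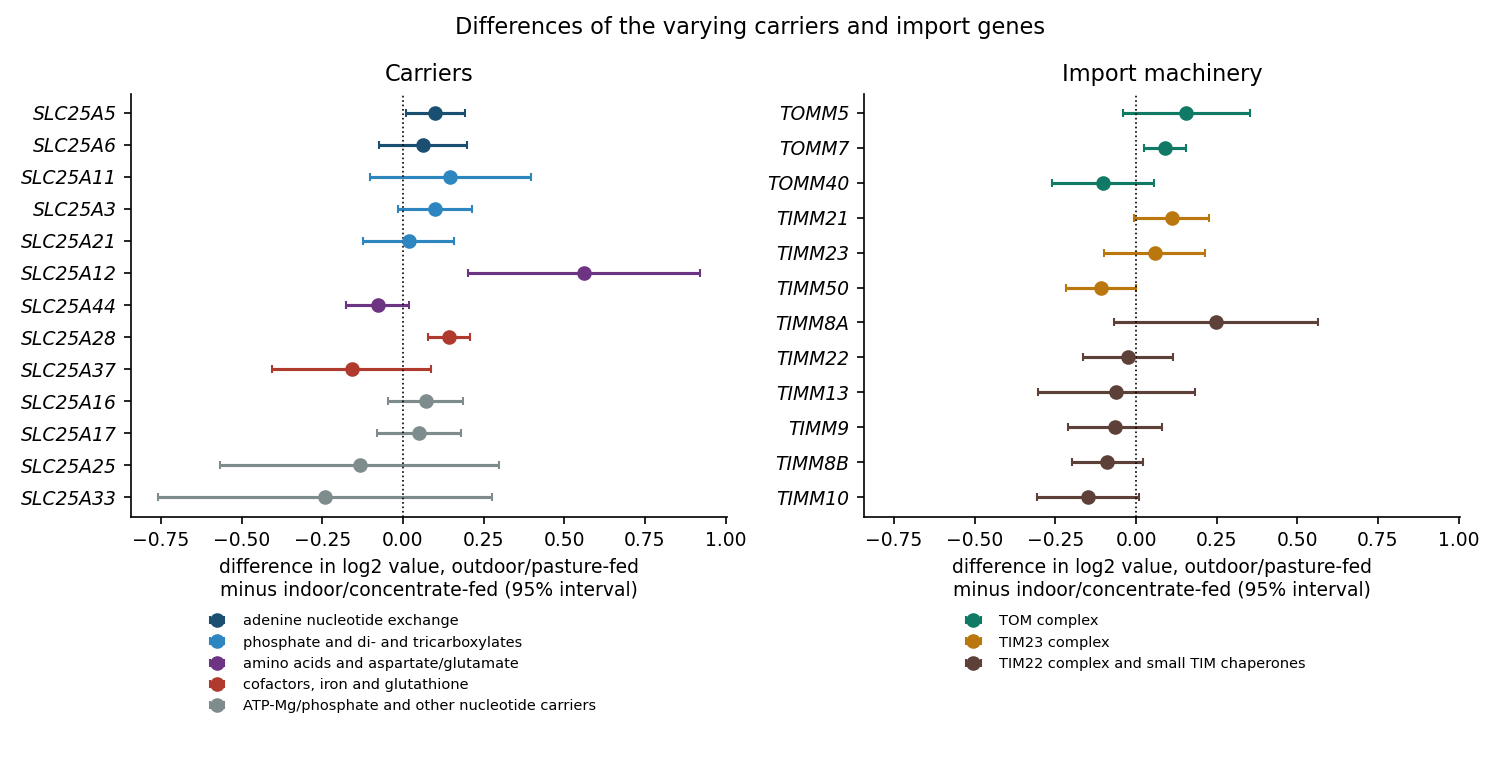
Difference of each of the 25 varying genes in log2 units (positive where the outdoor/pasture-fed animals were higher), with its 95% interval from limma, for carriers (left) and import genes (right); colours mark the roles and the dotted line marks 0. The difference of *SLC25A12* (0.56) lies furthest from 0, and of the 6 small TIM and TIM22 genes 5 lie below 0.

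The difference of largest size among the 43 genes was that of *SLC25A12* (gene 539494), which encodes aralar, the aspartate/glutamate carrier that serves the malate-aspartate shuttle. Its log2 value was 12.06 at the lowest, 12.21 at the median and 12.53 at the highest in the outdoor/pasture-fed animals. In the indoor/concentrate-fed animals the corresponding values were 10.89, 11.85 and 12.09. All 7 outdoor/pasture-fed animals were above the indoor/concentrate-fed median and 5 were above the highest indoor/concentrate-fed animal, so that the groups overlapped only at their edges. The difference was 0.56 (SE 0.17, 95% interval 0.20 to 0.92), or 1.48-fold, with an adjusted p of 0.247 from limma. The exact permutation test over the 3432 assignments of the animals gave p = 0.0017. In the fit to the varying probe sets the adjusted p was 0.10, and over all alternative settings, leaving out single arrays included, it ranged from 0.0902 to 0.395. Indoor/concentrate-fed replicate 2 had the lowest value, and without it the difference was 0.43 with an adjusted p of 0.250.

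The array carries 3 probe sets for *SLC25A12*, and all were higher in the outdoor/pasture-fed animals by a like amount. The others differed by 0.54 (SE 0.18, exact permutation p = 0.0070) and 0.54 (SE 0.15, exact permutation p = 0.0047). On the first of these 5 of 7 outdoor/pasture-fed animals lay above the highest indoor/concentrate-fed animal, and on the second 6 of 7 did. They read the same RNA extracts and are therefore not independent samples. *SLC25A11* (gene 282523), the oxoglutarate/malate carrier of the same shuttle, was at 10.08, 10.45 and 10.68 (lowest, median and highest) outdoors and at 9.98, 10.31 and 10.57 indoors. Its groups overlapped widely, and the difference of 0.15 (SE 0.12) had an adjusted p of 0.687 from limma. Without indoor/concentrate-fed replicate 3 it was 0.10.

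**Figure D2:**
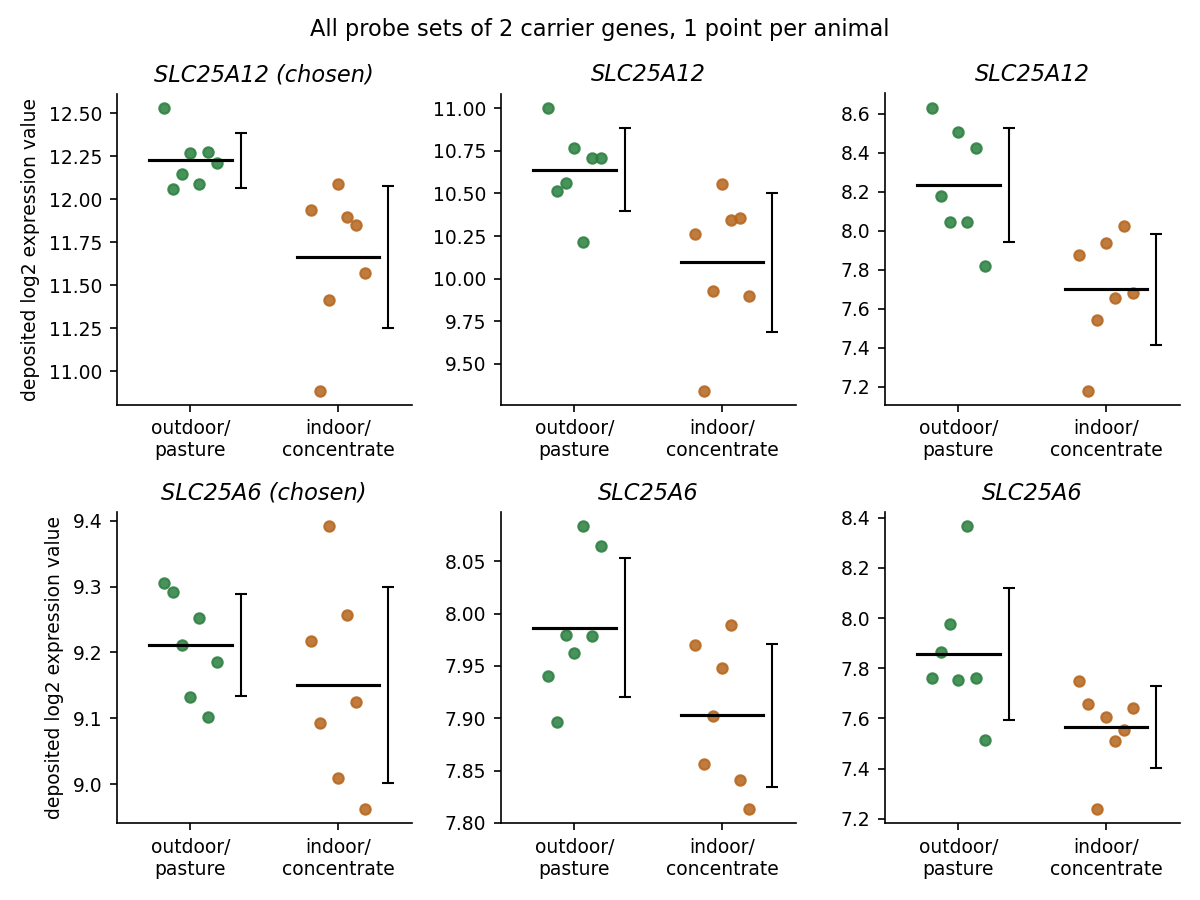
Deposited log2 values of all 3 probe sets of *SLC25A12* (top) and of *SLC25A6* (bottom), ordered by mean level, with 1 point per animal, a line at the group mean and a bar of ±1 SD beside it. The 3 panels of *SLC25A12* show nearly the same shift, whereas those of *SLC25A6* differ by 0.06, 0.08 and 0.29.

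The adjusted p was lowest for *SLC25A28* (gene 538529), which encodes mitoferrin-2, an importer of iron for haem and iron-sulphur clusters. Its values were 9.12, 9.21 and 9.29 (lowest, median and highest) in the outdoor/pasture-fed and 8.99, 9.08 and 9.14 in the indoor/concentrate-fed animals. Again all 7 outdoor/pasture-fed animals were above the indoor/concentrate-fed median and 5 of them above every indoor/concentrate-fed animal. The spread within the groups was small, and the difference was 0.14 (SE 0.03, 95% interval 0.08 to 0.21), or 1.10-fold. With limma the adjusted p was 0.147 in the fit to all 24016 probe sets and 0.0938 in that to the varying ones, with a range of 0.0750 to 0.327 over the same alternatives, and the exact permutation p was 0.0017. The other iron carrier, *SLC25A37* (mitoferrin-1), had a difference of -0.16 (SE 0.11, limma adjusted p = 0.649), or -0.10 without indoor/concentrate-fed replicate 3. Its values of 9.98 to 10.59 outdoors lay largely within those of 10.17 to 10.78 indoors.

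The adenine nucleotide translocases exchange ADP for ATP across the inner membrane. *SLC25A4*, the isoform typical of heart and skeletal muscle, was on a probe set of nearly constant value (13.78 on all arrays), so that no difference could be measured for it. *SLC25A5* (gene 282479) was at 11.29, 11.40 and 11.50 (lowest, median and highest) outdoors and at 11.15, 11.29 and 11.38 indoors. Here 4 of 7 outdoor/pasture-fed animals were above the highest indoor/concentrate-fed animal. The difference was 0.10 (SE 0.04, 95% interval 0.01 to 0.19), with an adjusted p of 0.388 from limma and an exact permutation p of 0.0367. The second probe set of *SLC25A5* hardly varied (SD 0.013 over all arrays) and showed a difference of 0.0003 (SE 0.0073). It can therefore say little about the shift, which rests on 1 probe set.

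*SLC25A6* (gene 282480), the third translocase, gave different sizes on its 3 probe sets. The chosen one was at 9.10, 9.21 and 9.30 outdoors against 8.96, 9.12 and 9.39 indoors, a difference of 0.06 (SE 0.06, adjusted p = 0.779 from limma). Leaving out single indoor/concentrate-fed animals moved this difference to 0.03 (replicate 7), 0.04 (replicate 4) or 0.10 (replicate 3). The groups overlapped on it, since the highest value of all was from an indoor/concentrate-fed animal. The others were higher by 0.08 (SE 0.04, exact permutation p = 0.0425) and by 0.29 (SE 0.12, exact permutation p = 0.0152). On the last of these 6 of 7 outdoor/pasture-fed animals were above the highest indoor/concentrate-fed value. Translocase transcripts are alike in sequence, and whether their probes cross-hybridise was not tested.

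**Figure D3:**
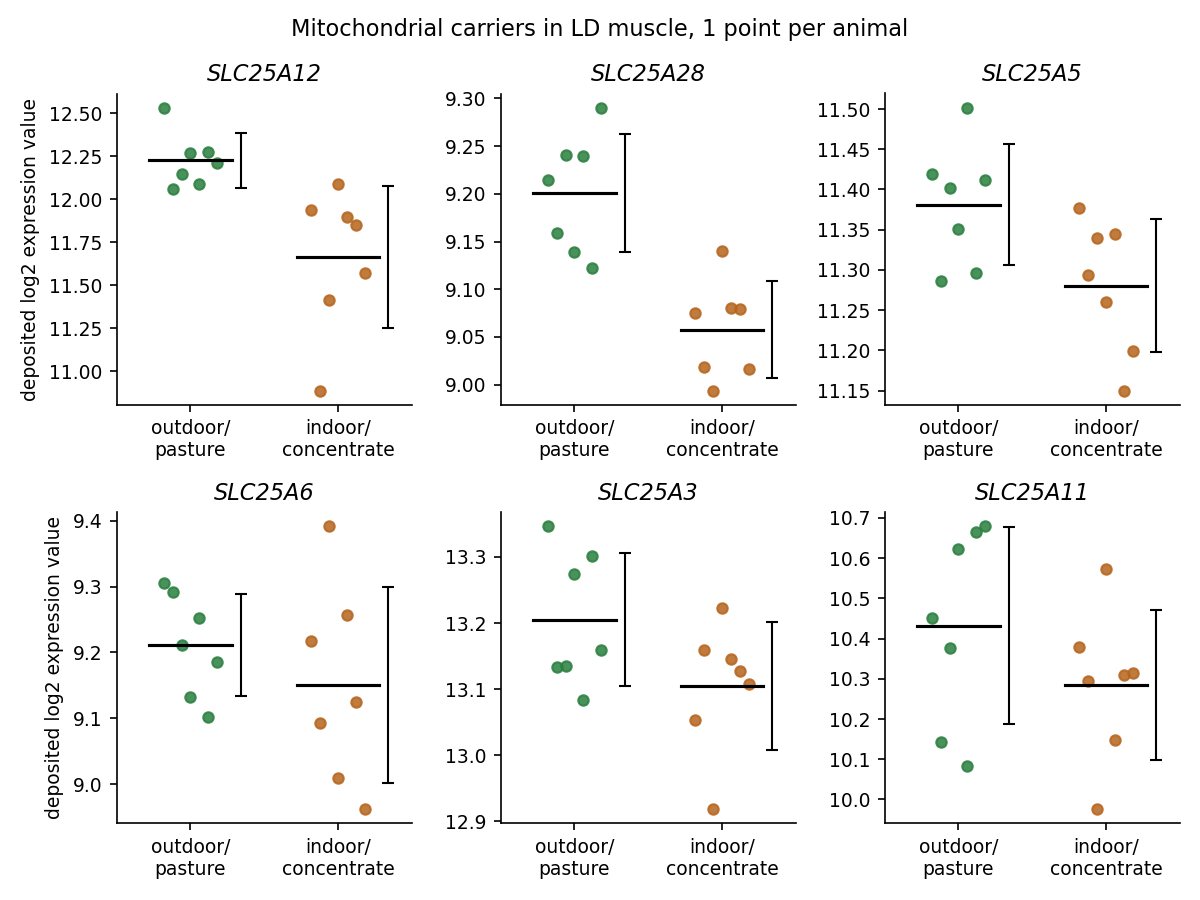
Deposited log2 values of 6 carriers at their chosen probe sets, with 1 point per animal, a line at the mean of each group of 7 and a bar of ±1 SD beside it; each panel has its own axis. For *SLC25A12* and *SLC25A28* 5 of 7 outdoor/pasture-fed animals lie above every indoor/concentrate-fed animal, for *SLC25A5* 4 do, and for *SLC25A6* none does.

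*SLC25A3* (gene 282477) carries the phosphate needed for ATP synthesis. It was at 13.08, 13.16 and 13.35 (lowest, median and highest) outdoors and at 12.92, 13.13 and 13.22 indoors, a difference of 0.10 (SE 0.05, adjusted p = 0.507 from limma). Although 3 of 7 outdoor/pasture-fed animals exceeded every indoor/concentrate-fed one, the medians lay close together. The oxodicarboxylate carrier *SLC25A21* differed by 0.02 (SE 0.07), a direction that turned with array weights and on leaving out any of 3 arrays (outdoor/pasture-fed replicate 2 or indoor/concentrate-fed replicate 2 or 3). The citrate carrier *SLC25A1* was nearly constant. All 3 varying genes of this role thus lay above 0 without any of them passing a threshold.

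*SLC25A44*, which carries branched-chain amino acids, was at 9.65, 9.76 and 9.77 (lowest, median and highest) outdoors and at 9.67, 9.83 and 9.92 indoors. All 7 outdoor/pasture-fed animals were below the indoor/concentrate-fed median. The difference was -0.08 (SE 0.04, adjusted p = 0.538 from limma, exact permutation p = 0.105). The carriers of ornithine (*SLC25A15*), of basic amino acids (*SLC25A29*) and of glycine (*SLC25A38*) were nearly constant, as was *SLC25A48*.

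The 4 varying genes of the nucleotide and coenzyme A group were divided in direction. *SLC25A16*, linked to coenzyme A, was at 8.69 to 8.98 outdoors and at 8.61 to 8.91 indoors, a difference of 0.07 (SE 0.05, adjusted p = 0.670 from limma) that became 0.04 without outdoor/pasture-fed replicate 5. *SLC25A17*, a member of the family that sits in peroxisomes, differed by 0.05 (SE 0.06). The ATP-Mg/phosphate carrier *SLC25A25* and the pyrimidine nucleotide carrier *SLC25A33* differed by -0.13 (SE 0.20) and -0.24 (SE 0.24), and both varied more between animals of a group than between the groups. For *SLC25A33* the 95% interval ran from -0.76 to 0.28, so that with 7 animals a group neither direction was resolved. *SLC25A42* and *SLC25A51*, carriers of coenzyme A and NAD, were nearly constant, as were the glutathione carrier *SLC25A40*, the uncoupling-like *SLC25A14* and *SLC25A30*, and the chosen probe set of the S-adenosylmethionine carrier *SLC25A26*. Another probe set of *SLC25A26* varied and differed by -0.02 (SE 0.08).

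Among the import genes, *TOMM7* (gene 614074), a small subunit that shapes the TOM complex, had the smallest p. Its values were 12.86, 12.91 and 12.94 (lowest, median and highest) in the outdoor/pasture-fed and 12.66, 12.82 and 12.89 in the indoor/concentrate-fed animals. As with *SLC25A12*, all 7 outdoor/pasture-fed animals were above the indoor/concentrate-fed median and 5 above the highest indoor/concentrate-fed value. The difference was 0.09 (SE 0.03, 95% interval 0.02 to 0.16), or 1.06-fold, with an adjusted p of 0.287 from limma and an exact permutation p of 0.0041. Over the alternatives, leaving out single arrays included, the adjusted p ranged from 0.187 to 0.447. Without indoor/concentrate-fed replicate 2, the lowest animal, the difference was 0.06.

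*TOMM5*, another small subunit, was at 8.03, 8.32 and 8.43 (lowest, median and highest) outdoors and at 7.81, 8.13 and 8.40 indoors, a difference of 0.16 (SE 0.09, adjusted p = 0.549 from limma). The pore itself, *TOMM40*, lay in the opposite direction, with 8.25, 8.47 and 8.52 outdoors against 8.37, 8.50 and 8.79 indoors and a difference of -0.10 (SE 0.07, adjusted p = 0.649 from limma). In both genes the groups overlapped. The receptors *TOMM22* and *TOMM70* and the small subunit *TOMM6* were nearly constant at their chosen probe sets, and a second probe set of *TOMM70* differed by 0.07 (SE 0.07). *TOMM34*, a cytosolic partner of chaperones rather than a TOM subunit, had an unadjusted p of 0.0334 from limma (exact permutation p = 0.0303), but on a nearly constant probe set, where the difference was -0.0008. *TOMM20* has no probe set by name here.

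The TIM23 genes also lay on both sides of 0. *TIMM50* (gene 505489), the receptor that takes presequence proteins over from TOM, was at 9.59, 9.68 and 9.79 (lowest, median and highest) outdoors and at 9.66, 9.84 and 9.92 indoors. All 7 outdoor/pasture-fed animals were below the indoor/concentrate-fed median and 3 were below the lowest indoor/concentrate-fed animal. The difference was -0.11 (SE 0.05, 95% interval -0.22 to -0.0007), with an adjusted p of 0.432 from limma and an exact permutation p of 0.0548. *TIMM21*, which links TIM23 with TOM and the respiratory chain, was at 10.55, 10.62 and 10.77 outdoors and at 10.36, 10.51 and 10.76 indoors. All 7 outdoor/pasture-fed animals were above the indoor/concentrate-fed median, with a difference of 0.11 (SE 0.05, adjusted p = 0.469 from limma, exact permutation p = 0.0664). The channel *TIMM23* differed by 0.06 (SE 0.07, 95% interval -0.10 to 0.21). Its difference was 0.03 when outdoor/pasture-fed replicate 1 or indoor/concentrate-fed replicate 3 was left out. It was 0.10 when outdoor/pasture-fed replicate 5 was left out and 0.04 when indoor/concentrate-fed replicate 5 was. *TIMM44*, which tethers the import motor, and the channel subunit *TIMM17B* were nearly constant, and *TIMM17A* has no probe set by name here.

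All 6 genes of the TIM22 complex and its small chaperones varied, and 5 of them had a negative difference, none with an unadjusted p under 0.05. *TIMM10* was at 8.36, 8.54 and 8.79 (lowest, median and highest) outdoors and at 8.50, 8.71 and 8.90 indoors, with 6 of 7 outdoor/pasture-fed animals below the indoor/concentrate-fed median. Its difference was -0.15 (SE 0.07, adjusted p = 0.471 from limma, exact permutation p = 0.0676), and that of *TIMM9*, with which it forms a chaperone for carriers, was -0.06 (SE 0.07). *TIMM8B* differed by -0.09 (SE 0.05) and *TIMM13* by -0.06 (SE 0.11). The insertase subunit *TIMM22* differed by -0.03 (SE 0.06) and by -0.06 (SE 0.06) on its 2 probe sets, and the first value turned positive with array weights and without outdoor/pasture-fed replicate 5 or indoor/concentrate-fed replicate 6. *TIMM8A*, the exception, was at 10.01, 10.10 and 10.54 outdoors and at 9.39, 10.06 and 10.31 indoors, a difference of 0.25 (SE 0.15, adjusted p = 0.555 from limma).

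**Figure D4:**
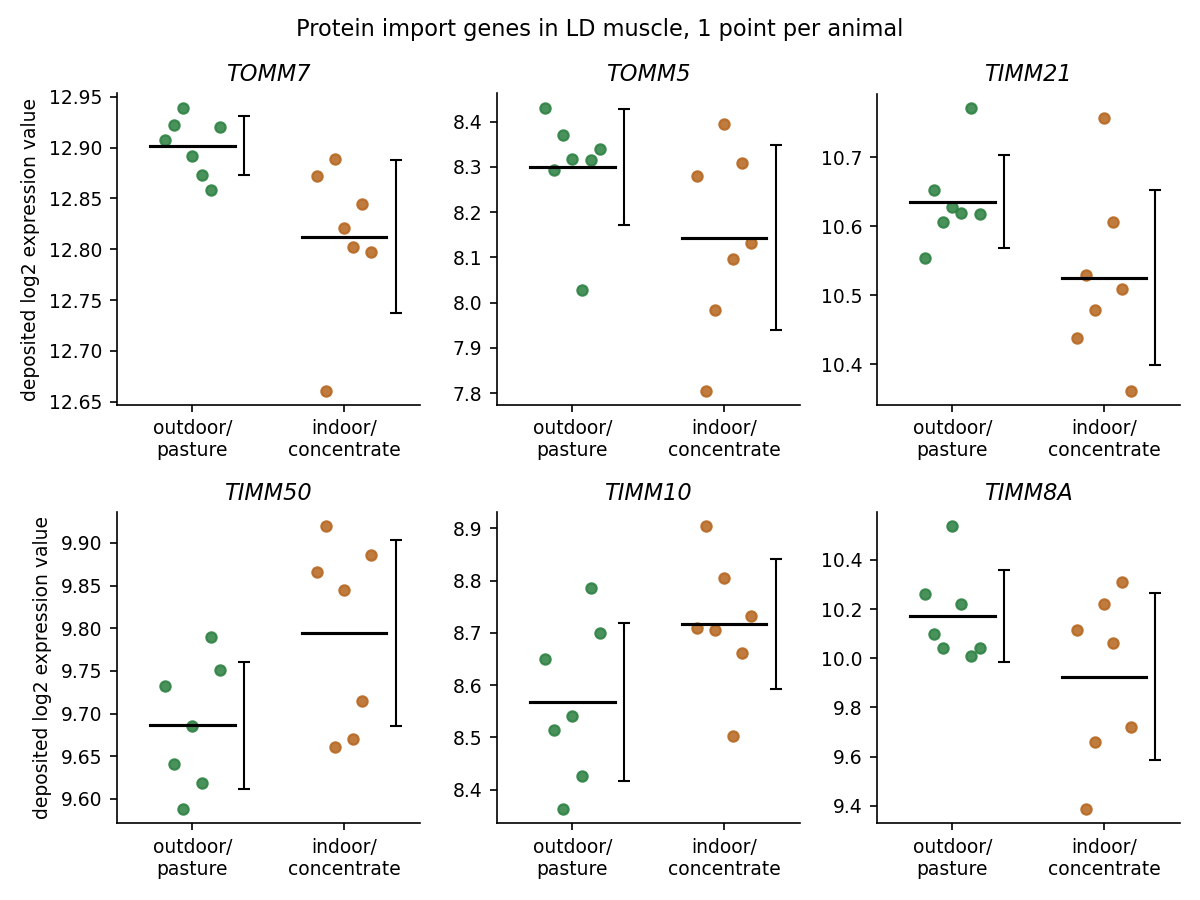
Deposited log2 values of 6 import genes at their chosen probe sets, with 1 point per animal, a line at the mean of each group of 7 and a bar of ±1 SD beside it; each panel has its own axis. *TOMM7* shows 5 of 7 outdoor/pasture-fed animals above every indoor/concentrate-fed animal, and in *TOMM5* and *TIMM8A* the lowest point is indoor/concentrate-fed replicate 2.

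Indoor/concentrate-fed replicate 2 was at an extreme for several of these genes. Of all 14 animals it was the lowest for *SLC25A12*, *TOMM7*, *TOMM5* and *TIMM8A* and the highest for *TIMM10*, *TIMM50* and *TOMM40*. Without it the difference was 0.16 for *TIMM8A*, 0.10 for *TOMM5*, -0.06 for *TOMM40* and -0.09 for *TIMM50*. Each kept its direction, and those of *TIMM8A*, *TOMM5* and *TOMM40* shrank by more than a factor of 1.5.

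Other transporters of the mitochondrial membranes were described from a separate list of 26 genes, of which 21 were measured and 13 varied. Of the varying ones 7 were higher and 6 lower, with a median difference of 0.01. At an unadjusted p of 0.05, 3 were higher and 0 lower, and 0 passed the adjusted threshold. At that unadjusted p, 5.35% of all probe sets were higher and 6.07% lower, and of the varying ones 9.21% and 10.4%. *VDAC3*, a pore of the outer membrane for metabolites, was at 13.21, 13.23 and 13.26 (lowest, median and highest) outdoors and at 13.09, 13.16 and 13.18 indoors. Every outdoor/pasture-fed animal was above every indoor/concentrate-fed one, although the difference was only 0.08 (SE 0.02, adjusted p = 0.124 from limma, exact permutation p = 0.0006). The groups separated completely in 0.811% of the varying probe sets. The others were *VDAC2*, higher by 0.10 (SE 0.03), and *CPT2*, higher by 0.38 (SE 0.13, adjusted p = 0.299 from limma). *CPT2* encodes an enzyme rather than a transporter, which passes fatty acyl groups from carnitine to coenzyme A inside the mitochondrion. The pyruvate carrier genes *MPC1* and *MPC2* differed by 0.08 (SE 0.07) and -0.04 (SE 0.16). Of the uncoupling protein genes, *UCP3* differed by 0.35 (SE 0.18), and *UCP1* and *UCP2* were nearly constant. For *UCP3* the unadjusted p was 0.0739 from limma and the exact permutation p was 0.0309.

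Of 28 further genes of import, assembly and folding, 17 were measured and 12 varied, 7 of them higher and 5 lower, with a median of 0.04. Again 0 passed the adjusted threshold, and 2 were higher and 0 lower at an unadjusted p of 0.05. The background at that threshold was 5.35% higher and 6.07% lower for all probe sets, and 9.21% and 10.4% for the varying ones. The 2 higher genes were *OXA1L* and *DNAJC19*. *OXA1L*, which inserts proteins into the inner membrane from the matrix side, had a difference of 0.31 (SE 0.10, exact permutation p = 0.0122). *DNAJC19*, a partner of the import motor, had 0.12 (SE 0.05, exact permutation p = 0.0344). *CHCHD4*, which receives small proteins in the intermembrane space, differed by -0.15 (SE 0.08). The matrix chaperonin genes *HSPD1* and *HSPE1* differed by -0.17 (SE 0.13) and -0.07 (SE 0.05), and the motor chaperone *HSPA9* by 0.05 (SE 0.06).

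Markers of other features of the muscle were compared in the same way. At an unadjusted p under 0.05, 5.35% of all probe sets were higher outdoors and 6.07% lower. Of the varying probe sets, 9.21% were higher and 10.4% lower. All 6 measured genes of mitochondrial content, which share *VDAC1* with the transporter list, had a positive difference, 3 of them at an unadjusted p under 0.05 (*ATP5F1B* 0.16, *COX4I1* 0.13 and *SDHA* 0.17). The mean of this list was 12.14 to 12.45 in the outdoor/pasture-fed and 12.05 to 12.39 in the indoor/concentrate-fed animals, so the groups overlapped. All 5 varying endothelial markers of 6 were higher at an unadjusted p under 0.05, with *CDH5* at 0.59, *PECAM1* at 0.54 and *TEK* at 0.43. Their list mean was 8.45 to 8.80 outdoors and 8.03 to 8.46 indoors. Of the slow fibre markers, 6 of 7 varied and all 6 had a positive difference, 1 of them (*ATP2A2*) at an unadjusted p under 0.05. Their mean was 13.19 to 13.37 outdoors and 12.64 to 13.33 indoors. Among 5 varying fast fibre markers, 1 (*MYH1*) was higher and 3 (*ACTN3*, *TNNC2* and *TNNI2*) were lower at that threshold in the fit to all probe sets, while 1 was higher and 0 were lower in the fit to the varying ones. No marker of adipocytes, leukocytes, fibroblasts or red blood cells had an unadjusted p under 0.05, and 0 markers of any list passed the adjusted threshold. The part of these markers in the differences of carriers and import genes was not tested.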

How the data were processed

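One array per heifer was used, 7 in each group. Quantile normalisation and FARMS summarisation were done by the authors, whose deposited table holds log2 values, taken here without further scaling. Their filter for informative probe sets could not be repeated without probe-level data. Of 24128 probe sets, 112 controls were left out. In the annotation used, 13318 probe sets have 1 gene symbol, 86 several and 10724 none, and no symbol of the 43 genes differed in the cattle reference.

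Groups were compared with limma 3.58.1 (lmFit, eBayes) under R 4.3.3, tested on simulated data, and, gene by gene, with two-sided exact permutation tests. P-values treat animals as independent, and the number of arrays limits the precision. Genes and lists were chosen with earlier results of these data known. Named are the 10 carriers and 10 import genes with the smallest p, main muscle carriers and main TOM and TIM subunits; others were named by role or where few. Nearly constant genes so ranked were *SLC25A4*, *SLC25A30*, *TOMM34* and *TOMM6*. Promoter motifs were not analysed here, as no promoter sequences were used. Alternatives were the replicate number as a block, a trended prior, a robust prior, filters on SD (0.01 and 0.1) and on the mean, renewed quantile normalisation, centring, array weights, the 5 arrays of highest scaling factor as a block, another probe set per gene, and leaving out each array.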

Additional observations from a re-analysis of the deposited data

Results flagged for a closer look

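In 3 of the 38 groups examined (19 varying genes, 2 groups each), 1 animal lay apart from the other 6 by Dixon's test; chance alone would give 1.9. *TOMM7* in indoor/concentrate-fed replicate 2 was at 12.66, below the next value of 12.80. *TIMM8B* in the same animal was at 10.72, below the next indoor/concentrate-fed value of 10.86, and without this animal its difference was -0.11. *TOMM5* in outdoor/pasture-fed replicate 5 was at 8.03, below the next of 8.29, and without it the difference was 0.20.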

How the results depend on the processing

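No carrier or import gene passed the adjusted threshold under any of the 11 alternatives or on leaving out any of the 14 arrays. Leaving out 1 array gave 2 to 4 carriers higher, 0 to 1 lower, 1 to 3 import genes higher and 0 to 3 lower at an unadjusted p of 0.05. Of all 24016 probe sets, 2743 were under that threshold in the main fit, 46.9% of them higher. On leaving out 1 array this number ran from 2283 to 2930. With the SD filter of 0.1, 1 carrier and 0 import genes were higher and 0 import genes lower, and the medians became 0.0552 for carriers and -0.0605 for import genes. With the SD filter of 0.01, 0 import genes were lower and the carrier median was 0.0608. Over all carriers, nearly constant ones included, the median was 2.11e-06. The filter of 0.1 left 1625 of 8072 probe sets under the unadjusted threshold (49.3% of them higher), and that of 0.01 left 1886 of 9623 (47.0%). Renewed quantile normalisation gave 4 import genes higher and 0 lower, array weights gave 2 higher, the scaling factor block gave 2 import genes higher and 1 carrier lower, and the filter on the mean and centring gave 1 import gene lower each. On leaving out 1 array, *SLC25A5* kept an unadjusted p under 0.05 in 7 of 14 fits and *TIMM50* in 5 of 14. The cause was not tested, apart from the filters' smaller number of genes. *TIMM22* turned to 0.000281 with array weights, 0.0219 without outdoor/pasture-fed replicate 5 and 0.000909 without indoor/concentrate-fed replicate 6, and the values on leaving out 1 array ran from -0.0484 to 0.0219. Of the other varying genes, *SLC25A21* alone turned under any alternative, and no varying gene did with renewed quantile normalisation or centring.

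Replicate numbers showed little sign of pairing the animals: the 7 same-numbered pairs correlated at -0.18 to 0.24, and 2 were above 0.1. In 2 of the 7 pairs the outdoor/pasture-fed array correlated best with the indoor/concentrate-fed array of its own number. So few pairs cannot exclude a pairing. With the replicate number as a block, 0 carriers and 0 import genes passed the adjusted threshold, 1 import gene was lower at an unadjusted p of 0.05, and 2 of all probe sets were called after adjustment. At that unadjusted p, 2475 of all 24016 probe sets were under the threshold, 45.7% of them higher.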
